A study of Sus scrofa with 8 samples.

Results

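miR-182-5p was followed through 8 small RNA libraries of porcine milk exosomes, the membranous vesicles that carry RNA and protein in milk. An insert, the read left after the 3′ adaptor was cut off, was taken as miR-182-5p when it was 18 to 26 nt long and its first 18 nt equalled those of miR-182-5p in the primer list of the study. This gave 286760 counts over the 8 libraries, out of 31322051 inserts in that range that had every base determined. miR-182-5p is 1 of the 13 pig miRNAs in that list, which the study drew from the most abundant miRNAs of these same libraries, so that being abundant here is not independent evidence. These 13 served as the reference set, the other 12 being miR-375-3p, miR-27b-3p, miR-21-5p, let-7a-1-5p, miR-574-3p, miR-200c-3p, miR-25-3p, miR-191-5p, miR-148a-3p and the a, c and d members of the miR-30 family (miR-30d-5p, miR-30a-5p and miR-30c-5p).

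The milk came from healthy, multiparous Yorkshire sows with no treatment. At 0 days after birth there was 1 library for each of 3 sows (0d-1, 0d-2 and 0d-3). The stages of 3, 7, 14, 21 and 28 days had 1 library each, made from pooled RNA, so that these stages have no replicate. Milk of 0 and 3 days was taken as colostrum (4 libraries) and milk of 7 to 28 days as mature milk (4 libraries), the division of the study, and the libraries of a class were taken as its replicates. The milk of all stages came from the same 3 sows, so the libraries are not from separate animals, and the pooled libraries carry no spread among sows. A p-value over these libraries therefore measures a mixture of the spread among sows at 0 days and the spread among stages, and takes the libraries as independent, which they may not be.

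miRNAs are short RNAs that lead the silencing complex to messenger RNAs, mainly through the seed, bases 2 to 8 from the 5′ end. miR-182 is made from the same genomic cluster as miR-183 and miR-96, is well known from sensory organs and from epithelial tumours, and is induced by interleukin-2 in helper T lymphocytes, where it lowers FOXO1. In the pig RefSeq annotation (assembly Sscrofa11.1) MIR182 lay beside MIR96 and MIR183 on one side and NRF1, a protein-coding gene, on the other. No table of pig miRNAs was used, so that miR-183-5p, miR-96-5p, the opposite arm of miR-182 and marker miRNAs of blood, muscle, liver and nervous tissue were not analysed here. Epithelial miRNAs outside the list were not counted either. Of those in it, miR-200c-3p made up at least 1.23% and miR-375-3p at least 0.672% of the 13 in every library. The list was drawn from abundant miRNAs of these libraries, so their presence is not independent evidence.

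The listed sequence of miR-182-5p is printed first with its seed in capitals, and then the 6 forms that reached 1% of its counts in any library, with the bases after position 18 in capitals, since all differences among these forms lie there. The 3 miRNAs of the list whose counts ran most closely with those of miR-182-5p follow, with seeds in capitals.
miR-182-5p, seed: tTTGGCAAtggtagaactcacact
24 nt, the listed sequence: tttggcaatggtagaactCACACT
22 nt, 2 bases shorter: tttggcaatggtagaactCACA
23 nt, 1 base shorter: tttggcaatggtagaactCACAC
25 nt, 1 base longer: tttggcaatggtagaactCACACTG
20 nt, 4 bases shorter: tttggcaatggtagaactCA
21 nt, 3 bases shorter: tttggcaatggtagaactCAC
miR-30a-5p, seed: tGTAAACAtcctcgactggaagc
miR-30d-5p, seed: tGTAAACAtccccgactggaagc
miR-30c-5p, seed: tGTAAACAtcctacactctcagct

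Libraries differed widely in depth and in what they held. They had between 14590531 reads (14d) and 28141425 reads (28d), of which 3.35% (7d) to 76.2% (0d-3) gave an insert of 18 to 26 nt. In 7 libraries, 42.5% (21d) to 73.6% (3d) of these inserts began with 1 of 4 short sequences of 5 nt, here called leaders, whose origin was not determined. In 0d-3 the leaders made up 0.105%, and miR-148a-3p, which took 62.0% to 74.4% of the 13 miRNAs in the other 7 libraries, took 0.102%. 0d-3 thus stood apart from the other colostrum libraries. Its label could not be checked from the files, and the tested measures of miR-182-5p and its edgeR fold change are given with and without it. Reads were 36 nt long in 7d and 21d, both of mature milk, and 40 nt long in the other 6, although the methods state a single read length for all libraries.

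miR-182-5p was present in every library. Its counts were 11581, 18210 and 220826 in 0d-1, 0d-2 and 0d-3. They were 3181 in 3d, 2454 in 7d, 7813 in 14d, 7470 in 21d and 15225 in 28d. The count of 0d-3 was far above all others, while the lowest counts, 3d and 7d, came from adjacent stages on either side of the boundary between the milk classes.

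As a share of the 13 miRNAs, miR-182-5p made up 4.25% (0d-1), 4.42% (0d-2) and 7.18% (0d-3) on the day of birth. It then made up 3.00% in 3d, 2.40% in 7d, 4.40% in 14d, 3.47% in 21d and 4.63% in 28d. The widest 95% Wilson interval ran from 2.90% to 3.11% (3d), and the interval of 14d overlapped those of 0d-1 and 0d-2. Intervals cover counting error only, because the reads carry no molecular identifiers. By stage, the order from high to low was 0 days (5.29% ± 1.64, SD, n = 3), 28, 14, 21, 3 and 7 days. Every step between neighbours in this order was smaller than that SD among sows, which rests on 0d-3. Without 0d-3 the 0 day mean was 4.34% ± 0.122 (SD, n = 2), below 28 and 14 days, and of the 5 steps only that between 14 and 0 days was then smaller than the SD. miR-182-5p was at rank 3 or 4 of the 13 in 7 libraries, and at rank 5 in 0d-3.

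The share of the 13 averaged 4.71% ± 1.76 (SD, n = 4) in colostrum and 3.72% ± 1.01 (SD, n = 4) in mature milk, a difference of 0.991 percentage points, and the ranges of the classes overlapped. An exact permutation test gave p = 0.429, two-sided (adjusted p = 0.429 over 5 measures, smallest p possible with 4 against 4 libraries 0.0286). Without 0d-3 the colostrum mean was 3.89% ± 0.776 (SD, n = 3) and the difference fell to 0.170 points. In such libraries, fewer vesicles with miR-182-5p and less of it per vesicle cannot be told apart.

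miR-148a-3p fills most of the reference set, so the share was also taken over the 12 miRNAs without it. It was then 11.6%, 12.3% and 7.19% at 0 days, and 9.90% at 3 days. In mature milk it was 9.36%, 11.7%, 11.1% and 12.2% at 7, 14, 21 and 28 days. The library that was highest before, 0d-3, was now the lowest. The difference between the classes turned to -0.825 points (10.3% ± 2.29 for colostrum against 11.1% ± 1.23, SD, n = 4 each, exact permutation p = 0.629). Without 0d-3 it was 0.199 points.

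In counts scaled to 1000000 inserts that did not begin with a leader (CPM), the levels of miR-182-5p were 11614, 13339 and 15908 at 0 days, and 7296 at 3 days. They were 6833, 10139, 10085 and 10860 at 7, 14, 21 and 28 days. On this scale all 3 libraries of 0 days lay above all other stages, and 3 and 7 days were again the lowest. Over all inserts, leaders included, 0d-3 was at 15891 CPM and the other 7 libraries lay between 1930 and 5795 CPM.

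**Figure D1:**
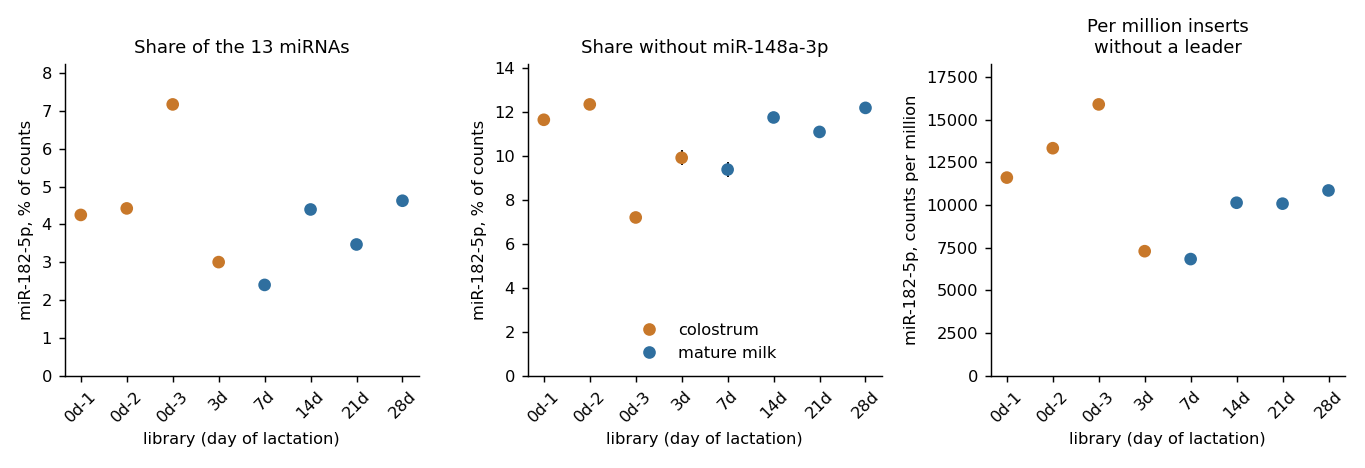
Level of miR-182-5p in each library (x axis, by day of lactation) as % of the counts of 13 miRNAs, as % of the 12 without miR-148a-3p, and as CPM over inserts without a leader. Colostrum is orange and mature milk blue. Bars on the shares are 95% Wilson intervals and mostly lie within the points. 0d-3 is the highest library on the left (7.18%) and the lowest in the middle (7.19%), and 3d and 7d are low in the left and right panels.

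The same contrast was fitted with edgeR's quasi-likelihood test over all units, a unit being the inserts that share their first 18 nt. miR-182-5p was at a log2 fold change of 2.06 (SE 1.89) for colostrum over mature milk, against a median of -0.32 over all units, with an adjusted p of 0.973 in edgeR (Benjamini-Hochberg, unadjusted 0.274). The threshold of an adjusted p under 0.05 was passed by 0 of 13905 units, or 0%, while 260 fell below 0.05 before adjustment. This second number depended strongly on 0d-3, since dropping that library raised it to 2798 of 14297 units in edgeR. Again 0 units passed after adjustment, the lowest adjusted p in edgeR being 0.240. With 0d-3 the unadjusted number was below what a cutoff of 0.05 passes where no unit differs, and without 0d-3 it was above. DESeq2, run with 0d-3 included, called 45 of 28362 units, and miR-182-5p was not among them. Its log2 fold change there was 1.38, against a median of 0.99 over all units (DESeq2 adjusted p = 0.797). The value of miR-182-5p rested on 0d-3. After scaling by TMM (trimmed mean of M values) it stood at 57692 CPM there and between 2615 and 7203 in the other 7, and without 0d-3 the log2 fold change was -0.09 (SE 0.50). With 0d-3 included, the other 12 miRNAs had log2 fold changes from -0.54 (miR-148a-3p) to 4.04 (miR-200c-3p), and none passed the threshold in edgeR.

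Over all 8 libraries, counts of miR-182-5p ran most closely with those of the miR-30 family. Likeness was measured as the SD, over the 8 libraries, of the log2 ratio of each miRNA's counts to those of miR-182-5p. It was smallest for miR-30a-5p (SD 0.10, mean log2 ratio 1.49), miR-30d-5p (SD 0.13, mean -0.28) and miR-30c-5p (SD 0.20, mean -0.52). These 3 share a seed with each other and not with miR-182-5p, whose seed no other miRNA of the list carries. Without 0d-3 miR-30a-5p and miR-30d-5p were again the nearest, but miR-30c-5p (SD 0.160) was level with miR-200c-3p (SD 0.160). There miR-30a-5p was counted on average 2.80 times as often as miR-182-5p. Such ratios between miRNAs compare counts, which depend on the ligation and amplification of each sequence as well as on its amount.

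The log2 ratio of miR-30a-5p to miR-182-5p lay between 1.36 (28d) and 1.63 (7d). miR-30d-5p lay between -0.46 and -0.08, and miR-30c-5p between -0.80 and -0.17. The ratio of all 3 to miR-182-5p in 0d-3 was thus close to or within that of the other libraries. At the other end stood miR-148a-3p (SD 3.66), whose log2 ratio was -6.13 in 0d-3 and 3.74 to 4.95 elsewhere, and miR-21-5p (SD 0.89). miR-200c-3p and miR-191-5p had SDs of 0.76 and 0.65 with 0d-3 and of 0.16 and 0.18 without it, where both were counted less often than miR-182-5p in every library. The SDs are descriptions over libraries that differ in depth and leader content.

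**Figure D2:**
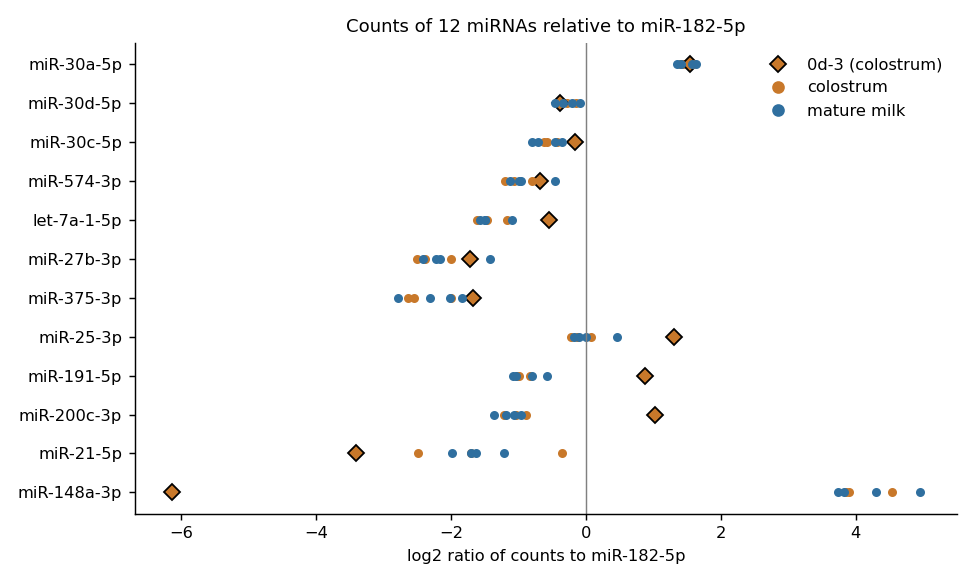
log2 ratio of the counts of 12 miRNAs to those of miR-182-5p (x axis), 1 point per library, with miRNAs ordered from the smallest to the largest SD. The 3 miR-30 miRNAs at the top form the tightest groups, and 0d-3 (diamond) lies at -6.13 for miR-148a-3p and above 0 for miR-25-3p, miR-191-5p and miR-200c-3p.

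In every library the 24 nt listed sequence was the most frequent form of miR-182-5p, and a form 2 bases shorter was the next. The listed sequence made up 58.4%, 59.6% and 67.3% of miR-182-5p at 0 days, and 52.8% at 3 days. It made up 41.6%, 57.0%, 55.5% and 55.7% at 7, 14, 21 and 28 days. The 22 nt form showed nearly the opposite order, with 25.7%, 24.6%, 17.5% and 31.0% in the colostrum libraries (0d-1, 0d-2, 0d-3 and 3d). In mature milk it was at 40.5%, 27.7%, 29.7% and 27.2%. Both extremes were set by single libraries, 0d-3 with the most complete miR-182-5p and 7d with the shortest.

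Lengths were uneven. Inserts of 22 and 24 nt together held 83.7% (7d) to 86.8% (21d) of the counts, and the odd lengths from 19 to 25 nt between 9.94% (7d) and 12.6% (0d-3). The ratio of 24 nt to 22 nt inserts was 2.32, 2.46 and 3.89 at 0 days and 1.72 at 3 days. In mature milk it was 1.03, 2.09, 1.88 and 2.08. Thus while the sum of both lengths hardly moved, their ratio ran from near parity in 7d to nearly 4 in 0d-3. The sows of 0 days were also compared by chi-square tests on counts, which take every read as independent and so cover counting error only. The length counts of 0d-1 and 0d-2 agree within sampling noise (chi-square 5.41 on 6 degrees of freedom, p = 0.493), while those of 0d-3 were far from both (chi-square 979.1 against 0d-1 and 1273 against 0d-2). 0d-1 and 0d-2 come from different sows and were kept as separate samples, and their counts of the 13 miRNAs differed by more than counting error (chi-square 522.7 on 12 degrees of freedom).

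**Figure D3:**
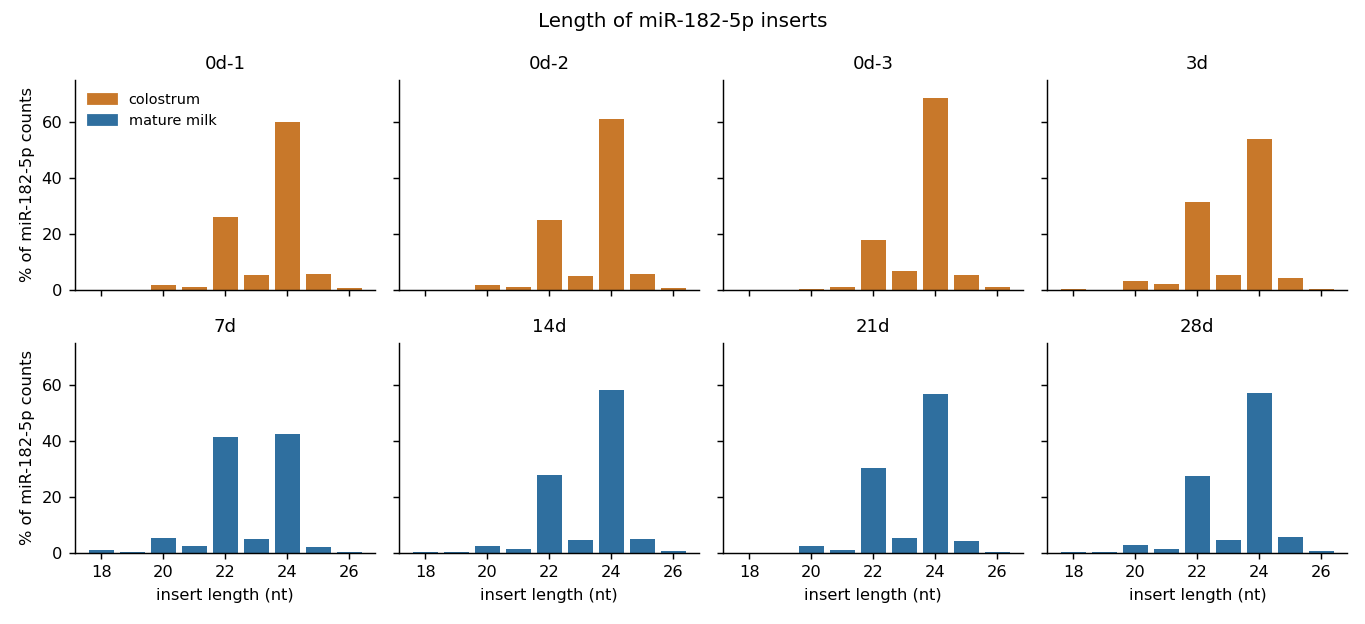
Length of miR-182-5p inserts (x axis, nt) as % of its counts (y axis) in each library. The 24 nt bar is the highest in all 8 panels and the 22 nt bar the next, and in 7d both are close to equal (42.5% and 41.2%).

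The other 4 named forms were minor. The 23 nt form averaged 4.78% ± 0.597 (SD, n = 8 libraries) and the 25 nt form, with a G added, 4.53% ± 1.13. The 20 nt form averaged 2.39% ± 1.43 and varied most for its size, from 0.356% in 0d-3 to 5.22% in 7d. The 21 nt form averaged 1.37% ± 0.547. These 6 forms together covered on average 97.1% of miR-182-5p and at least 96.6% in each library. In all, 140 kinds of insert were counted as miR-182-5p in any library and 18 in all 8. From 28 (7d) to 118 (0d-3) kinds were seen per library, but at an equal depth of 2454 counts the number was lowest in 0d-3 (23.7) and highest in 3d (31.2). A trailing A that is part of the listed sequence cannot be told from an added one, so the 22 nt form may include 21 nt molecules with an A added, and the 20 nt form 19 nt molecules.

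**Figure D4:**
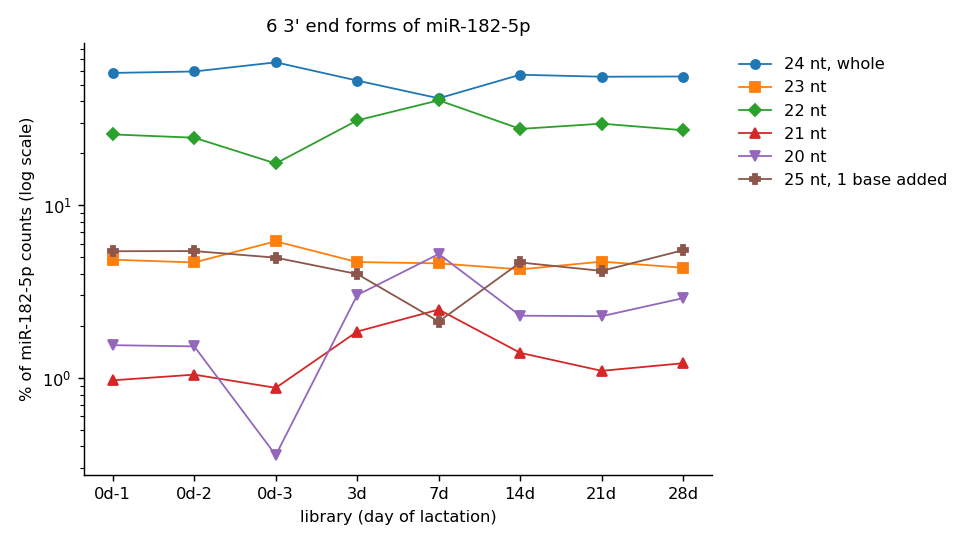
The 6 named 3′ end forms of miR-182-5p as % of its counts (y axis, log scale) in each library (x axis). The 24 nt and 22 nt forms meet in 7d (41.6% and 40.5%), and the 20 nt form is lowest in 0d-3 (0.356%) and highest in 7d (5.22%).

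No measure of the 3′ end passed the test between colostrum and mature milk. Mean length was 23.4 ± 0.176 nt in the 4 colostrum libraries and 23.2 ± 0.249 nt in the 4 of mature milk (SD, exact permutation p = 0.143). The share of the listed sequence was 59.5% ± 5.99 and 52.5% ± 7.26 in the same order (SD, exact permutation p = 0.257). Colostrum was the higher of the classes on average in both, and the classes overlapped in both. Longer inserts made up 5.77% ± 0.873 and 4.60% ± 1.68 (exact permutation p = 0.314), and inserts departing from the listed sequence after base 18 made up 2.06% ± 0.297 and 1.90% ± 0.177 (exact permutation p = 0.400). All adjusted p were 0.429 over the 5 measures (exact permutation tests). Since a single measure could not pass after this adjustment even with the classes fully apart, the lack of a call says little. Without 0d-3 the colostrum minus mature milk difference in exact share fell from 7.03 to 4.43 points (exact permutation p = 0.514), and without 7d to 3.42 points. The difference in mean length, 0.242 nt, was 0.173 nt without 0d-3 and 0.118 nt without 7d. That in departing inserts, 0.160 points, was 0.300 points without 0d-3 and 0.0750 points without 0d-1, and that in longer inserts, 1.17 points, was 1.03 points without 0d-3 and 0.408 points without 7d. The excess of longer inserts was not seen in the 6 libraries of 40 nt reads alone, where the difference was -0.0308 points.

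Longer inserts nearly always began their extension with G. They made up 6.15%, 6.29%, 6.18% and 4.46% of miR-182-5p in the colostrum libraries and 2.32%, 5.35%, 4.48% and 6.25% in mature milk. A single G accounted for 80.4% (0d-3) to 92.8% (21d) of them. GT accounted for a further 2.09% to 6.63%. GG made up 12.6% in 0d-3 and 1.75% to 3.47% in the other 7 libraries, and 0d-3 also had the largest share of 26 nt inserts (1.09%). Whether these bases follow miR-182-5p in its precursor was not determined, because no hairpin sequence was used.

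Inserts that departed from the listed sequence after base 18 made up 1.64% (0d-3) to 2.31% (0d-1) of miR-182-5p. A single A in place of the listed base or bases was the most frequent end of 1 base in all 8 libraries, at 37.0% (7d) to 62.6% (14d) of them. A single T accounted for 8.08% (28d) to 15.2% (7d). As a share of all miR-182-5p, inserts with the single A averaged 0.996% ± 0.170 (SD, n = 8). Departing inserts that matched the listed sequence up to base 23, and so differed at its last base, were 48.4% to 49.6% of them in the 3 libraries of 0 days and 26.1% (7d) to 55.0% (14d) in the other 5.

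The 5′ end, which sets the seed, varied much less than the 3′ end. Inserts starting 1 base after the listed start made up 0.0587% to 0.520% of all inserts that started at it or up to 3 bases to either side, and inserts starting 1 base before it 0.0811% to 0.476%. Inserts with 1 base differing within the first 18 were 1.09% (3d) to 5.03% (0d-1) of the matching and differing inserts together. For a difference in the seed, the share among matching inserts and such inserts was 0.312% (0d-3) to 2.37% (0d-1). These inserts are outside the counts above. The most frequent substitutions, counted from 1 at the 5′ end with the listed base first, were A15C (0.944% in 0d-2), C6T (0.656% in 0d-1), T12G (0.645% in 0d-3) and C17G (0.580% in 0d-3). They differed between the sows of 0 days, since A15C and C6T were at 0.0338% and 0.0285% in 0d-3, and T12G at 0.0106% in 0d-2. The part of sequencing error in them was not tested.

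miR-182-5p was in the middle of the 13 miRNAs in how often it was found as its listed sequence, somewhat below their median. Within a library, its share of exact inserts was set against the median of the other 12, and was lower in 7 of 8 libraries, by 3.89 points or more, and higher by 3.44 points in 0d-3. The mean difference was -7.31 ± 6.80 points (SD, n = 8), and an exact permutation test by sign flips gave p = 0.0156, two-sided, with a smallest possible p of 0.00781. Without 0d-3 the mean difference was -8.85 points (p = 0.0156 by the same exact permutation test). The test bears on the gap to the median only. It shows that this gap recurred over libraries of the same sows, which the test takes as independent. miR-182-5p ranked 4 to 7 from the lowest of the 13, and on average miR-30c-5p (39.0%), let-7a-1-5p (40.8%), miR-21-5p (42.9%), miR-191-5p (43.3%) and miR-30a-5p (45.4%) were found less often as listed than miR-182-5p (56.0%), so a low exact share is not particular to it. A match of 18 nt does not separate let-7a-1-5p, miR-27b-3p and miR-30c-5p from close relatives such as let-7c, miR-27a and miR-30b, so the counts of these 3 may include relatives and their exact shares may be too low. Their departing inserts averaged 43.5%, 9.74% and 14.7%, against 1.98% for miR-182-5p.

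The kind of shortening also differed. Loss of exactly 2 bases made up 28.0% ± 6.53 of miR-182-5p (SD, n = 8), the highest of the 13 miRNAs in all 8 libraries. The next highest was miR-30c-5p in 7 libraries, at 5.84% to 8.35%, and miR-21-5p in 0d-3 (5.25%). Loss of 1 base was by contrast at rank 7 of 13 for miR-182-5p in every library (4.78% ± 0.597), against 40.8% ± 8.45 for miR-21-5p and 36.9% ± 2.14 for miR-30c-5p. This pattern was noticed in the data, so it is described and not tested. The listed sequences set the point from which loss is counted, at 24 nt for miR-182-5p and miR-30c-5p and 21 to 23 nt for the others.

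The short and long ends of 7d and 0d-3 were not seen in miR-182-5p alone. The 7d library had the lowest share of longer inserts in 10 of the 13 miRNAs and the highest share of shorter ones in 6 of 13. 0d-3 had the highest share of longer inserts in 9 of 13, but miR-182-5p was not one of them. For shorter inserts 0d-3 was lowest in 6 of 13, with miR-182-5p, and highest in 3, namely miR-148a-3p, miR-30a-5p and miR-30d-5p. The part of read length, depth and leader content in these differences was not tested.

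**Figure D5:**
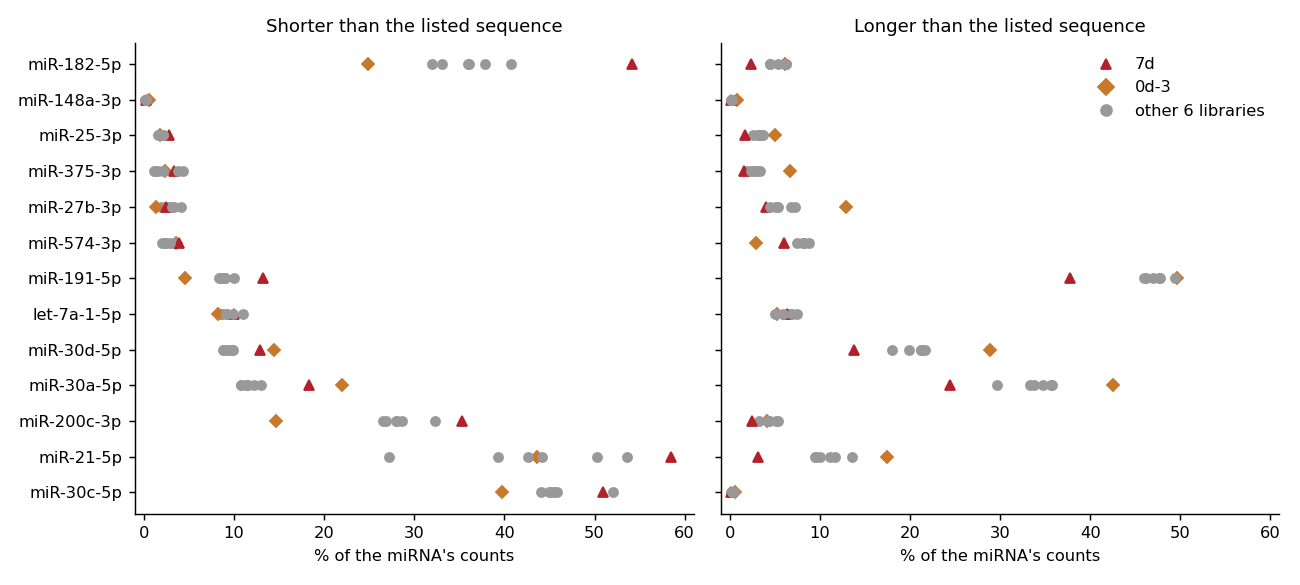
Share of inserts shorter (left) and longer (right) than the listed sequence for 13 miRNAs (x axes, % of each miRNA's counts), 1 point per library. miR-182-5p is in the top row, with shorter inserts from 24.9% in 0d-3 (diamond) to 54.2% in 7d (triangle) and longer ones from 2.32% to 6.29%.

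miR-182-5p was also found behind a leader. These inserts, of up to 32 nt, are not part of the counts above. They numbered 1327, 2750, 11 and 64 in 0d-1, 0d-2, 0d-3 and 3d, or 10.3%, 13.1%, 0.00498% and 1.97% of miR-182-5p with and without a leader. In mature milk they numbered 25, 906, 65 and 2460, or 1.01%, 10.4%, 0.863% and 13.9% at 7, 14, 21 and 28 days. The reads of 36 nt in 7d and 21d are too short to show a leader followed by 24 nt and the adaptor, so their values are lower limits. At a length of 22 nt after the leader, which both read lengths can show, the share was 1.36% and 1.62% in 7d and 21d and 7.08% and 8.14% in 14d and 28d. Among the colostrum libraries, all of 40 nt reads, it was 8.56% in 0d-1, 7.65% in 0d-2, 0.0103% in 0d-3 and 1.96% in 3d, so low shares were not confined to the shorter reads. A leader was less frequent on miR-182-5p than on the median of the other 12 miRNAs in all libraries but 0d-3, for example 10.3% against 17.96% in 0d-1 and 1.97% against 10.3% in 3d. In 0d-3 the comparison rests on 11 counts, and in 7d and 21d the read length bears more on the 24 nt of miR-182-5p than on shorter miRNAs.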

How the data were processed

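Exosomal RNA was sequenced on an Illumina Genome Analyzer II. The authors deposited, for each library, the distinct reads with their counts, which are not normalized, still carry the 3′ adaptor and include kinds seen once, so that the filters of the study are not in them. The adaptor was derived from the bases that follow the listed miRNAs and located in each read by its first 8 nt, matched without error. Undetermined bases were not allowed in an insert (18 to 26 nt), which dropped 150 miR-182-5p inserts. Departing, longer and shorter inserts were set against the listed sequence, of 24 nt. Means were compared with exact permutation tests over 4 against 4 libraries. Units with an insert seen more than 10 times in any library were tested with edgeR 4.0.16 (filterByExpr, TMM) on R 4.3.3, and with DESeq2 1.42.0 as an alternative. On data simulated at a dispersion of 0.1, edgeR recovered 200 of 200 units changed by a log2 fold of 4 with 9 false calls. At the dispersion of these libraries with 0d-3 included (1.46) it recovered 0 of 200. The named items are the 13 listed miRNAs, the 3 with the smallest SD of log2 ratio to miR-182-5p and its 3′ end forms of at least 1% in any library. The miRNA, lists and tests were chosen with earlier results of these data known. Neighbouring genes are from NCBI RefSeq, and no coordinates are given because the study used another genome build. Other computations used Python 3.11.15, numpy 2.4.6 and scipy 1.17.1.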

Additional observations from a re-analysis of the deposited data

Results flagged for a closer look

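Of 42 groups of 4 libraries (21 measures of miR-182-5p in each milk class), 9 held a library far from the other 3 by Dixon's test, which flags about 5% of groups by chance. Several of the measures overlap. In colostrum, 0d-3 had 220826 counts (others 3181 to 18210) and 15891 CPM over all inserts (others 1930 to 4147), and 6.54% of its inserts were 23 nt long (others 5.01% to 5.15%). Also in colostrum, 3d had 4.46% longer inserts (others 6.15% to 6.29%) and 1.92% of 21 nt (others 0.900% to 1.07%). In mature milk, 7d had a mean length of 22.8 nt (others 23.3 nt), 41.6% exact inserts (others 55.5% to 57.0%), 54.2% shorter inserts (others 35.9% to 37.9%) and 42.5% of 24 nt (others 56.7% to 58.2%). 7d also had the fewest counts of miR-182-5p (2454). Its reads were of 36 nt, as were those of 21d, which was not far from 14d and 28d in these measures. The part of depth and read length in the values of 7d was not tested.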

How the results depend on the processing

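No call of miR-182-5p changed its side of the threshold under any alternative. In the subsets of 40 nt reads, however, the exact permutation tests between the milk classes had too few libraries to pass it. The same held wherever 1 library was left out, where the lowest p of these exact permutation tests was 0.0571. These alternatives therefore could not have changed a call of those tests. Several directions did change. Over the 12 miRNAs other than miR-148a-3p the difference in share was -0.825 points. In the 5 libraries of 40 nt reads without 0d-3, chosen after seeing the data, it was -0.619 points, and the difference in longer inserts was -0.166 points. With 0d-3 kept, the 6 libraries of 40 nt reads gave -0.0308 points for longer inserts and 0.202 points for the share of the 13. They gave 0.105 nt for mean length, 3.14 points for exact share and 0.247 points for departing inserts. The edgeR log2 fold change was -0.0919 without 0d-3 and -0.13 in those 5 libraries, and ranged from -0.09 to 2.50 when each library was left out in turn. It was 1.66 with RLE scaling (median of all units 0.28) and 0.58 with library size only (median -0.38). Without a filter on low counts it was 0.99 (median 0.44). Called units rose from 0 to 1 without a filter on low counts and to 45 with DESeq2. The cause was not tested. Mean length, exact share and departing share kept their direction in all 12 alternatives each but not their size. Leaving out each library gave 0.118 to 0.316 nt, 3.42 to 9.29 points and 0.0750 to 0.300 points, and the 5 libraries of 40 nt reads without 0d-3 gave 0.0358 nt, 0.541 points and 0.387 points. The exact share against the other 12 miRNAs kept its direction in all 11, with exact permutation p of 0.0156 to 0.0313 and differences of -8.85 to -5.44 points when each library was left out. Leaving out each library gave 0.170 to 1.56 points for the share of the 13 and 0.408 to 1.72 points for longer inserts. No paired analysis by sow was possible because each stage after 0 days had a single library of pooled RNA. Only 0 days had more than 1 library, and counts of 2454 (7d) and 3181 (3d) limit rare forms there. At the spread among these libraries, 0d-3 included, edgeR made no calls in simulated data. That spread depends on 0d-3, since the SE of the miR-182-5p log2 fold change was 1.89 with it and 0.50 without it.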
